A study of Mus musculus with 4 samples.

Results

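The genes described here are 10 components of the Notch pathway in mouse colonoids, which are organoids grown from colonic epithelium. They comprise the receptors *Notch1*, *Notch2* and *Notch3*, the ligands *Dll1*, *Dll4*, *Jag1* and *Jag2*, the receptor-modifying enzyme gene *Lfng* and the direct target genes *Hes1* and *Nrarp*. They were picked by name, and all 10 were found among the 36144 gene names of the count table. Bulk RNA-seq was available for untreated colonoids and for colonoids given 2 mM sodium butyrate, a short-chain fatty acid made by fermentation of fibre, on day 2 (48 h) and day 3 (72 h). Each of the 4 conditions was represented by a single library. All cultures were at passage 3 and shared a crypt medium with EGF, Noggin, R-spondin, B27 and N2 supplements, the GSK3 inhibitor CHIR99021 and the ROCK inhibitor Y-27632. The labels give a wild-type (WT) male mouse of 24 weeks as the source, whereas the study describes the sequenced organoids as coming from 1 Hes1-GFP reporter mouse, with the sequencing done once. The 4 libraries thus share a single animal, and whether they share a culture is not given in the sources used here. The comparison asks how butyrate changed the transcripts of a pathway that opposes secretory differentiation.

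Notch signalling passes between neighbouring cells. A Delta-like or Jagged ligand on one cell engages a Notch receptor on the next, the receptor is cut by an ADAM protease and then by γ-secretase, and the freed intracellular domain joins the DNA-binding protein Rbpj in the nucleus to switch on genes such as *Hes1*. In gut epithelium, cells that receive the signal become enterocytes, and cells that escape it switch on *Atoh1*, a gene that Hes1 holds down, and become goblet or endocrine cells that present Delta-like ligand to their neighbours. Nrarp is a target that feeds back to dampen the pathway, and the glycosyltransferase made from *Lfng* (Lunatic fringe) extends sugars on the receptor and alters which ligands it responds to.

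Library totals ranged from 20790225 to 24207840 counts, and counts were divided by DESeq2 size factors of 0.926 to 1.10 to give the normalised counts used below. Log2 fold changes were taken on normalised counts plus a pseudocount of 1, and the intervals in brackets are 95% intervals of counting error alone. With a single library per condition there was no replicate error against which to test a difference, so no p-values were computed, and no molecular identifiers are described, so that the intervals treat copies of 1 molecule as separate. All 10 members were among the 13979 genes that exceeded 10 counts in 2 or more libraries, and their lowest count was 45. The colonic epithelial markers were high in each library, with *Krt8* and *Epcam* at 34595 and 31839 normalised counts in the untreated 48 h library. With butyrate, 5 of these 10 markers had an interval above 0 and 4 below at 48 h, and 1 above and 9 below at 72 h. The shares of all genes were 29.3% and 31.3% at 48 h and 25.9% and 26.4% at 72 h, and 0 of the markers reached 2-fold. In bulk samples, fewer cells that express a gene and less RNA per cell cannot be told apart.

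Among the receptors and ligands, *Notch2*, *Notch3* and *Jag2* were higher with butyrate at both times, whereas *Notch1*, *Dll1*, *Dll4* and *Jag1* were lower at 48 h. *Notch3* was 4.88-fold higher at 48 h and 2.84-fold higher at 72 h, and *Jag2* was 1.98-fold and 1.78-fold higher. *Dll1* at 48 h was at 0.392 of its untreated level. At a threshold of 2-fold, 1 member (*Notch3*) was higher at 48 h, against 6.94% of all genes that passed the count filter, and 1 (*Dll1*) was lower, against 3.08% of all genes. At 72 h, 1 (*Notch3*) was higher, against 4.53%, and 0 were lower, against 3.78%. At 1.5-fold, a threshold added after the values were seen, *Notch3* and *Jag2* were higher at 48 h (2 of 10, background 13.1%) and *Notch1*, *Dll1* and *Dll4* lower (3 of 10, background 8.90%), while at 72 h *Notch3* and *Jag2* were higher (background 9.50%) and 0 were lower (background 8.53%). The counting interval left out 0 for 10 of 10 members at 48 h, where it did so for 60.7% of all genes, and for 6 of 10 at 72 h, where it did so for 52.3%. Of all genes, 29.3% had an interval above 0 and 31.3% below at 48 h, and 25.9% and 26.4% at 72 h. The median log2 fold change of the members was −0.26 at 48 h and −0.0029 at 72 h, beside −0.011 and 0.0022 for all genes, and 4 of 10 members were higher at 48 h (48.7% of all genes) and 5 of 10 at 72 h (50.3%).

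**Figure D1:**
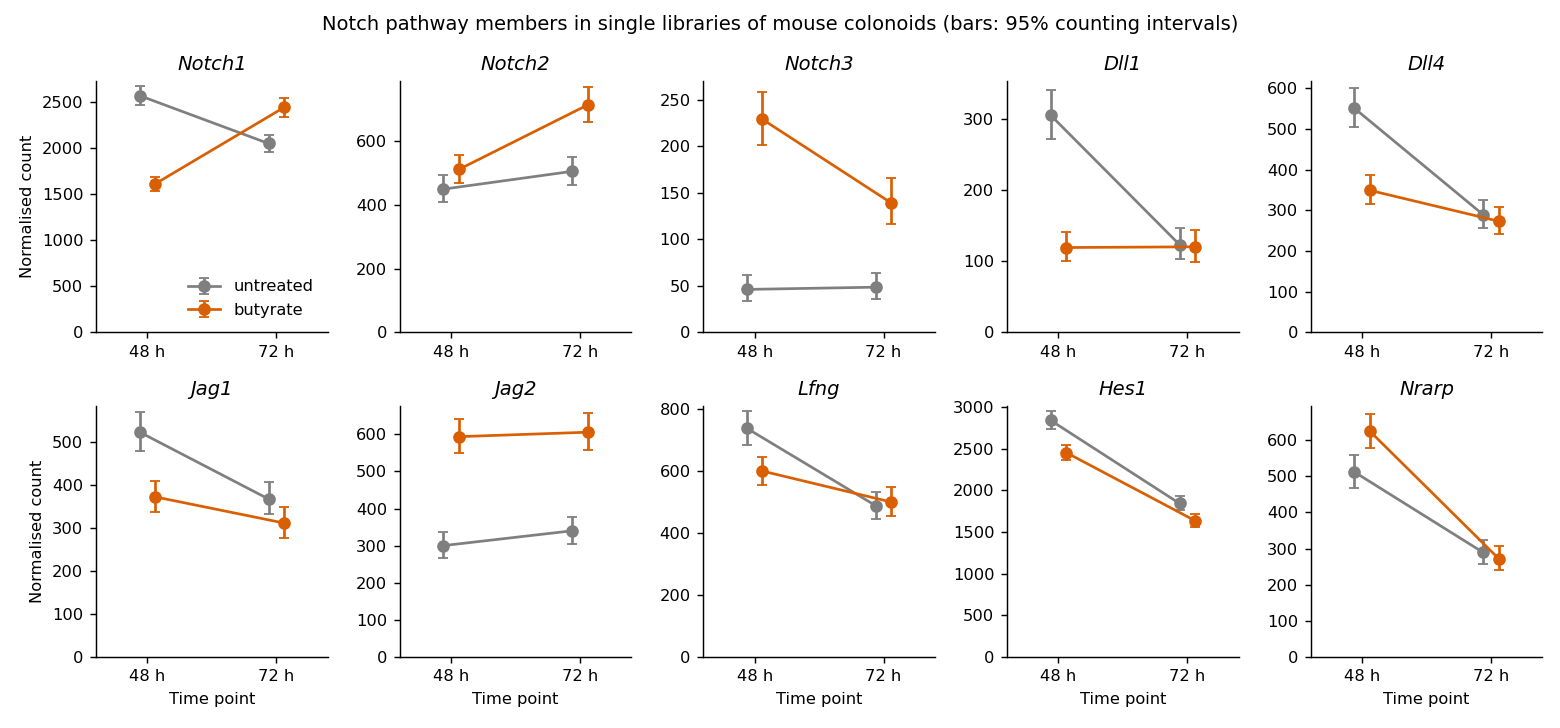
Normalised counts of the 10 members (vertical axis, linear from 0) at 48 h and 72 h, with untreated libraries in grey, butyrate libraries in orange and lines joining the libraries of 1 treatment. Each point is 1 library and each bar its 95% counting interval; *Notch3* and *Jag2* stand higher in both butyrate libraries, and *Dll1* is high in the untreated 48 h library alone.

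Promoter sequence was read for the members to show what lies upstream of those that changed most and of the target genes. RefSeq windows of 250 bases before the start of transcription on GRCm38.p6 were found for 9 of the 10 members, which left out *Hes1*. *Dll1* had 2 windows, for 2 annotated starts, and the others had 1 each. Both strands were searched for TGGGAA, the core that Rbpj recognises, and for GGGCGG, the GC box recognised by Sp1-type factors, which cannot overlap each other. The Rbpj core was found for 1 of the 9 members, *Lfng*, and in 21.5% of 27025 promoters of the same length. The GC box was found for 7 of the 9 and in 32.9% of all promoters. *Notch1*, *Notch2* and *Jag2* held 5 GC boxes each, overlapping copies included, *Notch3* held 4, *Dll4* and *Nrarp* 2 and *Lfng* 1, and *Jag1* and both windows of *Dll1* held 0. The windows of *Notch1* and *Jag2* lie inside the GENCODE genes, whose outer starts are farther upstream, and are not printed. The windows below are written 5′ to 3′ on the strand of the gene, in lower case with both kinds of match in capitals. They show the receptor with the largest increase (*Notch3*, chr17:32166891-32167140, minus strand), the ligand with the largest decrease (*Dll1*, chr17:15376933-15377182, minus strand, the window of the 2 that lies outside the GENCODE gene), the enzyme gene with 2 separate Rbpj cores (*Lfng*, chr5:140607091-140607319, plus strand, trimmed to 229 bases where the GENCODE gene begins) and the feedback target (*Nrarp*, chr2:25180508-25180757, plus strand).
Notch3: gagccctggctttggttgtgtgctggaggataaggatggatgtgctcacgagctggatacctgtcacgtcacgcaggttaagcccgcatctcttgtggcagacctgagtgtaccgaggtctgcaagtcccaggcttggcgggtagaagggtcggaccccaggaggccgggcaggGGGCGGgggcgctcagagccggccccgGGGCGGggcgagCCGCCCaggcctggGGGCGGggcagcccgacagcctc
Dll1: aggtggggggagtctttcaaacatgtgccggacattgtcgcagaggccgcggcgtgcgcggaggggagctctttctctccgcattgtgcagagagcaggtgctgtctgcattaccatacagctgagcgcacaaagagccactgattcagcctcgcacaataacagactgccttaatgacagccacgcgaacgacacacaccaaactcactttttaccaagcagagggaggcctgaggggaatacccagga
Lfng: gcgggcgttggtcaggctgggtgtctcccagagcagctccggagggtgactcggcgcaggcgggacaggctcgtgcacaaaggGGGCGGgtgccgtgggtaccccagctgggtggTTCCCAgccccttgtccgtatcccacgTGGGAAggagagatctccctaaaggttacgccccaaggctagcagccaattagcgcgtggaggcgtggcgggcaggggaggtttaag
Nrarp: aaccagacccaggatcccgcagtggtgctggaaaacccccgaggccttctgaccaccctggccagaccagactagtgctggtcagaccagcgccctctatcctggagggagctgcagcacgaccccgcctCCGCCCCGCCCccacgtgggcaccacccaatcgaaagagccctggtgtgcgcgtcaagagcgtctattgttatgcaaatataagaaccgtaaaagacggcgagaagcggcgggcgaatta
In *Lfng* the first base of the Rbpj core lies 135 bases before the start of transcription for the copy on the opposite strand (TTCCCA as printed) and 108 bases before it for the copy on the gene's own strand. A match describes letters only, and no binding was measured here.

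*Notch1* (chromosome 2, 26457903 to 26516663 on GRCm38, minus strand), the main receptor of the intestinal crypt, was the most abundant of the receptors per kb of exon in each library. Its level at 48 h was 2566 normalised counts without and 1609 with butyrate, and at 72 h 2047 without and 2438 with it. The butyrate library was thus the lower of the pair at 48 h and the higher at 72 h, with log2 fold changes of −0.67 (−0.76 to −0.59) and 0.25 (0.17 to 0.34). The change at 72 h exceeded that at 48 h by 0.93 (0.80 to 1.05).

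*Notch2* (chromosome 3, 98013527 to 98150361, plus strand), which acts beside *Notch1* in crypt cells, stood at 450 normalised counts without and 512 with butyrate on day 2, and at 506 without and 715 with it on day 3. Its log2 fold change was 0.19 at 48 h, with a lower bound just above 0 and an upper bound of 0.37, and 0.50 (0.33 to 0.67) at 72 h. The butyrate 72 h library stood above the other 3, which lay between 450 and 512.

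*Notch3* (chromosome 17, 32120820 to 32166852, minus strand) is known best from smooth muscle and pericytes of blood vessels. At 48 h the untreated library held 46.0 normalised counts and the butyrate library 229, and at 72 h they held 48.4 and 139 in the same order. The untreated libraries were alike, with a log2 change of 0.07 (−0.54 to 0.69) from 48 h to 72 h, and both butyrate libraries stood above them. Butyrate over untreated gave a log2 fold change of 2.29 (1.85 to 2.80) on day 2 and 1.51 (1.04 to 2.03) on day 3, and the later minus the earlier value was −0.78 (−1.45 to −0.13).

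Markers of vessel wall cells were followed beside *Notch3*. Of 8 mural cell markers, 4 passed the count filter, and the sum over all 8 was 141 normalised counts (untreated) and 156 (butyrate) on day 2, then 174 and 148 on day 3. *Rgs5*, a pericyte marker named after its values were seen, had between 0 and 1 counts in each library. Of the same list and named likewise, *Kcnj8* had 18 and 12 counts on day 2 and 6 and 0 on day 3. *Abcc9* had 10 to 13 counts per library. *Pdgfrb*, the highest of the list, was at 81.8 and 61.7 normalised counts on day 2 and 104 and 59.4 on day 3, lower in both butyrate libraries, whereas *Mcam* was at 22.5 and 58.1, and 39.5 and 62.6, higher in both. The 8 endothelial markers summed to 79.8 and 128 at 48 h and 84.9 and 103 at 72 h, with *Vwf* at 44.0 and 81.7, and 26.7 and 67.0, and *Pecam1* at 20.5 and 33.6, and 44.4 and 24.8. The endothelial genes *Cdh5* and *Emcn*, also named after their values were seen, had 0 to 1 counts per library. *Tek*, named likewise, had 4 and 12 counts on day 2 and 3 and 7 on day 3, higher in both butyrate libraries. *Kdr* had 8 and 1, and 8 and 3, lower in both, and neither passed the count filter. The part of *Mcam*, *Vwf* and *Tek* in the *Notch3* result was not tested. The 6 fibroblast markers, with *Pdgfra* and *Col1a1* highest, summed to 15.1 to 21.8 normalised counts and the 6 immune markers, with *Itgam* and *Ptprc* highest, to 41.7 to 71.3.

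The make-up of the receptor transcripts was compared within each library, where scaling between libraries plays no part. Counts were divided by exon length and summed over *Notch1*, *Notch2*, *Notch3* and *Notch4*. *Notch1* held 78.0% (76.4 to 79.6) of this sum without and 57.1% (55.1 to 59.1) with butyrate on day 2, then 72.2% (70.3 to 74.0) and 65.8% (64.0 to 67.6) on day 3. *Notch3* held 2.46% (1.85 to 3.28) and 14.3% (12.8 to 16.0) at 48 h, and 3.00% (2.28 to 3.94) and 6.62% (5.61 to 7.80) at 72 h. *Notch2* held between 18.1% and 25.5% and stayed second in each library. Relative to *Notch1* in the same libraries, *Notch3* was higher with butyrate by 2.99 (2.52 to 3.45) on the log2 scale at 48 h and by 1.27 (0.79 to 1.76) at 72 h.

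**Figure D2:**
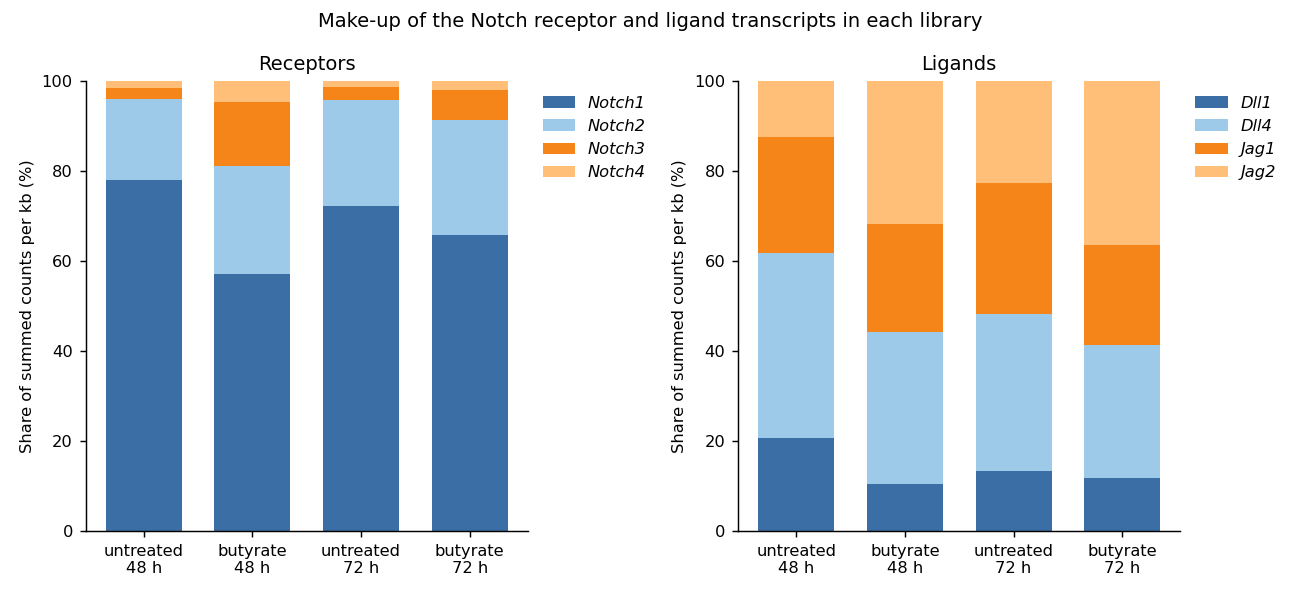
Share (vertical axis, percent from 0 to 100) of the summed counts per kb of exon held by each of 4 Notch receptor genes (left) and 4 ligand genes (right), with 1 bar for each library. *Notch3* takes 14.3% of the receptor sum in the butyrate 48 h library and at most 3.00% in the untreated ones, and *Jag2* takes a larger share of the ligand sum in each butyrate library than in the untreated library of the same time.

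The ligands split into those lower with butyrate at 48 h and *Jag2*. *Dll1* (chromosome 17, 15367354 to 15376872, minus strand), a Delta-like ligand carried by secretory progenitors, measured 305 normalised counts in the untreated 48 h library and 119 in its butyrate counterpart, with 123 and 120 in the 72 h pair. Only the untreated 48 h library was high, and the other 3 lay between 119 and 123. Its log2 change with butyrate was −1.35 (−1.67 to −1.06) on day 2, and on day 3 it was −0.04 (−0.42 to 0.34), too small to be resolved at this depth.

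*Dll4* (chromosome 2, 119325784 to 119335962, plus strand), the other Delta-like ligand of the crypt, was lower with butyrate on day 2, at 349 against 551 normalised counts untreated, and stood at 273 against 289 on day 3. Butyrate over untreated was −0.66 (−0.85 to −0.47) in log2 units at the earlier time and −0.08 (−0.33 to 0.17) at the later one, where the interval spans 0. *Jag1* (chromosome 2, 137081456 to 137116644, minus strand), a Jagged ligand, gave 524 (untreated) and 373 (butyrate) normalised counts on day 2, then 368 and 312 on day 3. It was lower in both butyrate libraries, with changes of −0.49 (−0.68 to −0.30) and −0.24 (−0.47 to −0.01) on the log2 scale.

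*Jag2* (chromosome 12, 112907819 to 112929776, minus strand), the second Jagged ligand, was at 300 and 340 normalised counts in the untreated libraries of 48 h and 72 h and at 594 and 606 in the butyrate ones. Treated and untreated libraries formed separate ranges, and the log2 change was 0.99 (0.79 to 1.19) on day 2 and 0.83 (0.64 to 1.03) on day 3. At 48 h it lay just under the threshold of 2-fold, and upper quartile scaling or size factors from genes whose normalised count averaged 50 or more placed it above. *Jag2* relative to *Jag1* in the same libraries was higher with butyrate by 1.48 (1.20 to 1.75) and 1.07 (0.78 to 1.37) on the log2 scale.

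Per kb of exon, *Dll1* and *Dll4* together made up 61.8% of the sum of the 4 ligands without and 44.3% with butyrate on day 2, then 48.2% and 41.4% on day 3. *Jag2* held 12.4% (11.0 to 13.8) and 31.8% (29.7 to 34.0) at 48 h, and 22.5% (20.4 to 24.8) and 36.3% (33.7 to 38.9) at 72 h. *Dll1* held 20.7% (18.7 to 22.9) and 10.5% (8.93 to 12.3) at 48 h, and 13.5% (11.5 to 15.9) and 11.8% (9.95 to 14.0) at 72 h. With butyrate at 48 h *Dll4* (33.8%) and *Jag2* (31.8%) stood first and second, an order that turned when the longest transcript was used as the length (30.1% and 37.6%).

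Markers of the secretory cells that carry Delta-like ligands were read beside *Dll1* and *Dll4*. Of 8 such genes, 5 had an interval below 0 at 48 h and 2 above 0, and at 72 h 6 were below and 1 above (all genes: 31.3% below and 29.3% above at 48 h, 26.4% and 25.9% at 72 h). Their summed normalised counts, most of them from *Muc2*, the main secreted mucin, were 82875 (untreated) and 63439 (butyrate) on day 2, then 129540 and 72269 on day 3. *Muc2* itself was at 73062 and 52053, and at 119430 and 65481. *Tff3*, the trefoil peptide of goblet cells, was at 3602 and 6148, and at 4835 and 3090. *Reg4*, another of the 8, was named after its values were seen. It was higher in both butyrate libraries, at 1126 and 1324, and at 336 and 700, and was the 1 marker above 0 at 72 h. The sum of the 7 markers other than *Muc2*, taken after the values were seen, was 9813 (untreated) and 11386 (butyrate) on day 2, then 10110 and 6788 on day 3. Without *Muc2* and *Tff3* the other 6 summed to 6211 and 5239, then 5275 and 3698. The direction of the sum at 48 h thus differed with these 2 genes, and the part of these markers in the ligand result was not tested.

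*Lfng* (chromosome 5, 140607320 to 140615545, plus strand) was at 738 normalised counts in the untreated and 600 in the butyrate library of day 2, and at 488 and 500 in the pair of day 3. In log2 units the change was −0.30 (−0.45 to −0.15) on day 2, while the interval of day 3, 0.04 (−0.15 to 0.22), spans 0.

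The target genes *Hes1* and *Nrarp* differed in direction at 48 h. *Hes1* (chromosome 16, 30064384 to 30067796, plus strand), the transcriptional repressor read out by the reporter of the study, was 0.864 of its untreated level with butyrate at 48 h and 0.888 at 72 h. Untreated libraries held 2843 (48 h) and 1844 (72 h) normalised counts, and butyrate libraries 2456 and 1637, which is a log2 change of −0.21 (−0.29 to −0.13) on day 2 and −0.17 (−0.27 to −0.07) on day 3. Both butyrate libraries were lower than the untreated library of the same time, and the difference between the log2 changes, 72 h minus 48 h, was 0.04 (−0.08 to 0.16). *Nrarp* (chromosome 2, 25180758 to 25183339, plus strand) was higher in the butyrate library of day 2, at 625 against 512 normalised counts, and stood at 272 against 289 on day 3. The log2 changes were 0.29 (0.12 to 0.46) and −0.09 (−0.34 to 0.16). Relative to *Hes1*, *Nrarp* was higher with butyrate by 0.50 (0.32 to 0.68) on the log2 scale at 48 h, and the value at 72 h was 0.08 (−0.18 to 0.35). Annotated genes on the other strand share 2051 bases with the exons of *Nrarp* (Gm38287), 1068 and 414 with those of *Notch1* (0610009E02Rik and Gm13568), 867 with those of *Dll1* (A930024N18Rik), 488 with those of *Notch3* (Gm17276) and 214 with those of *Dll4* (Gm14207), and Gm42820 shares 541 bases with *Notch2* on the same strand. They are not among the gene names of the table, and whether the counting used strand is not given in the sources used here.

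**Figure D3:**
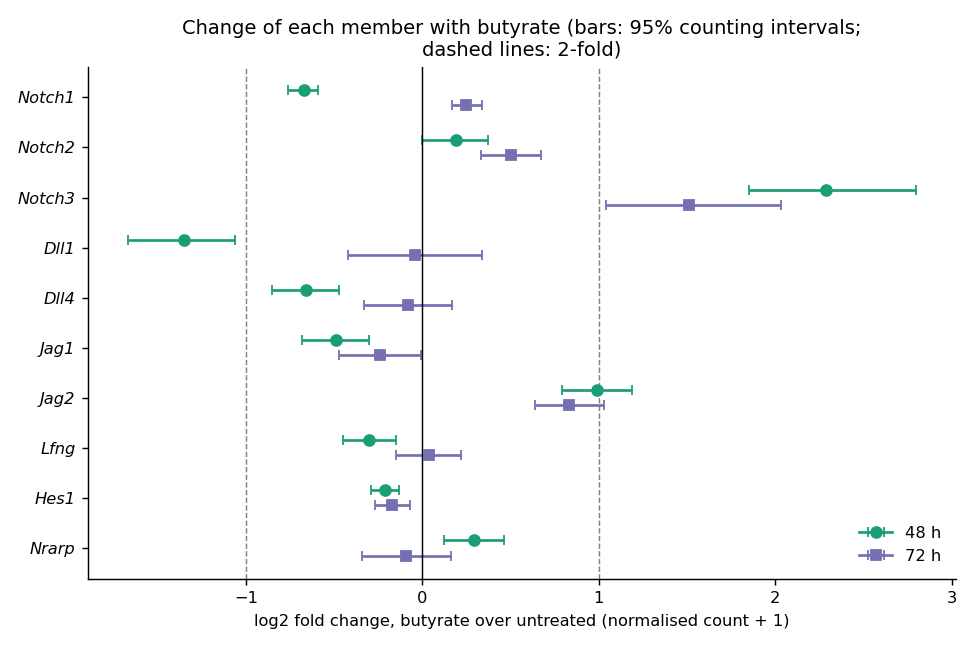
Log2 fold change of butyrate over untreated (horizontal axis, normalised count plus 1) for each member at 48 h (circles) and 72 h (squares), with 95% counting intervals and dashed lines at 2-fold. *Notch3* lies beyond 2-fold at both times and *Dll1* at 48 h, and *Notch1* has intervals on opposite sides of 0.

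Several members also differed between the times. From 48 h to 72 h without butyrate, 7 of 10 members had an interval below 0, against 20.2% of all genes, and 0 had one above, against 22.4%. *Dll1* was lower at 72 h, with a log2 change of −1.30 (−1.62 to −1.0), as were *Dll4* at −0.93 (−1.14 to −0.72), *Nrarp* at −0.82 (−1.04 to −0.61), *Hes1* at −0.62 (−0.71 to −0.54), *Lfng* at −0.60 (−0.77 to −0.43), *Jag1* at −0.51 (−0.70 to −0.31) and *Notch1* at −0.33 (−0.41 to −0.24). This comparison and that of butyrate at 48 h share the untreated 48 h library, in which *Dll1*, *Dll4*, *Jag1*, *Lfng*, *Hes1* and *Notch1* had their highest levels. With butyrate, from 48 h to 72 h, 6 members had an interval below 0 (31.4% of all genes) and 2 above (30.0%), with *Nrarp* at −1.20 (−1.41 to −0.99), *Hes1* at −0.58 (−0.68 to −0.49), *Notch1* at 0.60 (0.51 to 0.69) and *Dll1* at 0.01 (−0.37 to 0.39). The change with butyrate exceeded in size the untreated change over time for 5 of 10 members at 48 h (63.2% of all genes) and for 3 at 72 h (58.2%), and for 3 at both times (44.2%). The latter were *Notch2*, *Notch3* and *Jag2*, and the time change is a gauge from single cultures, not a replicate error. For *Notch2* at 48 h the excess was within counting error, at 0.19 against an untreated time change of 0.17 (−0.02 to 0.36).

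Levels of different members can be compared only per length. In untreated colonoids at 48 h the order, in normalised counts per kb of exon, was *Hes1* (1395), *Lfng* (295), *Nrarp* (198), *Notch1* (180), *Dll4* (143), *Jag1* (89.8), *Dll1* (72.2), *Jag2* (43.0), *Notch2* (41.7) and *Notch3* (5.69). The counting intervals of neighbours overlapped for *Nrarp* and *Notch1* and for *Jag2* and *Notch2*, and in no other pair of neighbours. This order and these overlaps hold for exon length and were not recomputed with the longest transcript as the length. For *Notch1* the exons span 14232 bases and the longest transcript 9488, and for *Jag2* 6965 and 5106, so that both could move. With butyrate at 48 h *Hes1* (1206) was again first, followed by *Nrarp* (242) and *Lfng* (239), *Dll4* (90.7) and *Jag2* (85.3) were neighbours, and *Notch3* (28.3) and *Dll1* (28.2) came last, and in each of these 3 pairs the intervals overlapped. The summed level of the 4 receptors was 231 without and 198 with butyrate on day 2, then 199 and 260 on day 3, and that of the 4 ligands 348 and 268, and 216 and 240.

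The rest of the pathway was read from a list of 52 genes, of which 44 passed the count filter. At 48 h, 6 of the 44 (13.6%, background 6.94%) exceeded the untreated level by 2-fold or more and 1 (2.27%, background 3.08%) was lower by as much. At 72 h, 4 (9.09%, background 4.53%) were higher and 0 (background 3.78%) lower. The median log2 fold change was −0.081 at 48 h and −0.013 at 72 h. *Notch4*, a receptor known from endothelium, had 26 (untreated) and 81 (butyrate) counts on day 2, then 21 and 40 on day 3, with log2 fold changes of 1.43 (0.81 to 2.16) and 1.02 (0.26 to 1.90). *Dll3*, a ligand that was named after its values were seen and did not pass the filter, gave 27 and 7 counts on day 2, then 10 and 5 on day 3. The others that did not pass were *Dlk1*, *Dlk2*, *Dtx1*, *Hes5*, *Hey1*, *Hey2* and *Heyl*, none above 15 counts in a library.

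Of 4 further genes that put sugars on the receptor, 4 had an interval above 0 at 48 h (29.3% of all genes) and 2 at 72 h (25.9%). *Mfng* (Manic fringe) had 40 and 100 counts on day 2 and 19 and 66 on day 3, with log2 fold changes of 1.13 (0.61 to 1.72) and 1.87 (1.17 to 2.75). It was higher in both butyrate libraries. The O-fucosyltransferase *Pofut1* had log2 changes of 0.23 (0.11 to 0.34) and −0.09 (−0.22 to 0.03), and *Rfng* of 0.39 (0.25 to 0.54) and −0.01 (−0.16 to 0.14). Of 4 genes for ubiquitin ligases that act on ligands, 0 reached 2-fold at either time, a threshold passed by 6.94% (higher) and 3.08% (lower) of all genes at 48 h and by 4.53% and 3.78% at 72 h. The interval was above 0 for 1 and below for 1 at 48 h, and above for 2 and below for 1 at 72 h, so that 2 and 3 of the 4 left out 0 (60.7% and 52.3% of all genes). *Mib1* had log2 changes of −0.45 (−0.54 to −0.37) and 0.19 (0.11 to 0.28), and *Neurl1b* of −0.11 (−0.27 to 0.04) and −0.53 (−0.67 to −0.39).

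Among 10 genes of receptor cleavage, 5 had an interval below 0 at 48 h (31.3% of all genes) and 7 at 72 h (26.4%), and 3 and 1 had one above (29.3% and 25.9%). *Ncstn*, the nicastrin subunit of γ-secretase, had log2 changes of −0.60 (−0.67 to −0.53) and −0.26 (−0.33 to −0.19). *Adam10*, the protease of the first cut after ligand binding, had log2 changes of −0.13 (−0.19 to −0.06) and −0.08 (−0.15 to −0.02). *Aph1c* had 11 and 68 counts on day 2 and 20 and 30 on day 3, log2 fold changes of 2.36 (1.53 to 3.52) and 0.69 (−0.15 to 1.61), and is uncertain because its close copy *Aph1b* could share its reads.

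Of 7 genes of receptor turnover and sorting, 3 had an interval below 0 at each time (31.3% and 26.4% of all genes), and 1 and 2 had one above (29.3% and 25.9%). *Dtx3*, a Deltex-family ubiquitin ligase, was higher in both butyrate libraries, by 1.45 (1.21 to 1.70) and 1.55 (1.31 to 1.82), with 185 and 571 counts on day 2 and 177 and 477 on day 3. *Numbl*, a relative of the Notch inhibitor Numb, had log2 changes of 0.65 (−0.03 to 1.39) and 1.08 (0.53 to 1.67). *Dtx4* was lower in both, with log2 changes of −0.94 (−1.06 to −0.81) and −0.29 (−0.40 to −0.18), and the ubiquitin ligase *Itch* of −0.53 (−0.62 to −0.43) and −0.15 (−0.24 to −0.06). The 12 genes of the nuclear complex and its co-repressors included 0 that reached 2-fold, against the same shares of all genes (6.94% and 3.08% at 48 h, 4.53% and 3.78% at 72 h). Of these, 7 had an interval that left out 0 at each time (60.7% and 52.3% of all genes), 6 below and 1 above at 48 h, and 3 below and 4 above at 72 h. The co-repressor *Ncor1* had log2 changes of −0.28 (−0.33 to −0.23) and −0.09 (−0.13 to −0.04), and the acetyltransferase *Ep300* of −0.29 (−0.36 to −0.22) and 0.06 (−0.01 to 0.12).

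**Figure D4:**
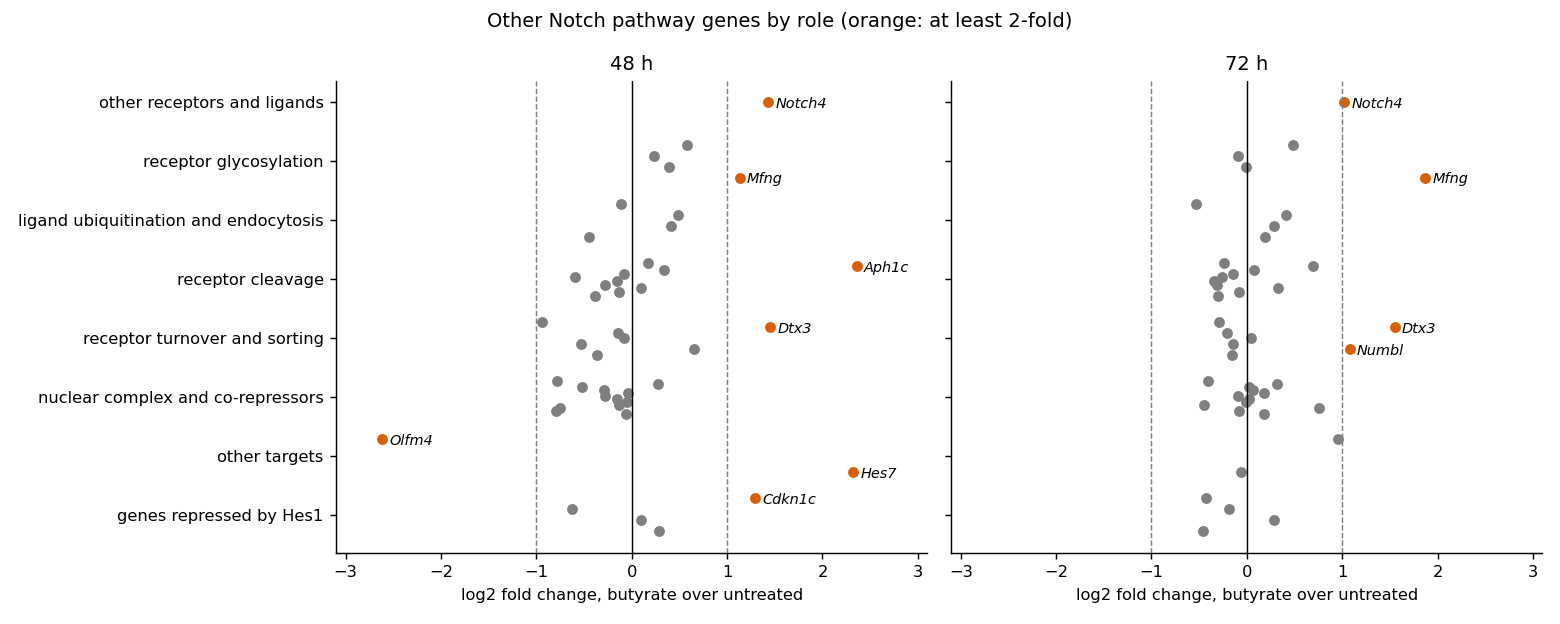
Log2 fold change of butyrate over untreated (horizontal axis) at 48 h (left) and 72 h (right) for the 44 other pathway genes that passed the count filter, in rows by role, with 1 point for each gene and genes at or beyond 2-fold (dashed lines) in orange with their names. *Notch4*, *Mfng* and *Dtx3* are beyond 2-fold to the right in both panels, *Notch4* at 72 h narrowly (1.02, and 0.905 with a pseudocount of 5).

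Of 6 further target genes, 2 passed the filter and both were low. *Hes7*, a relative of *Hes1*, had 12 and 72 counts on day 2 and 32 and 28 on day 3, with log2 fold changes of 2.32 (1.52 to 3.43) and −0.06 (−0.85 to 0.71). *Olfm4* had 16 and 2 counts on day 2 and 13 and 24 on day 3, and the interval of its log2 ratio ran from −6.34 to −1.08 on day 2 and from −0.02 to 2.11 on day 3. Of the 4 genes that Hes1 is known to repress, 2 had an interval above 0 and 1 below at 48 h, and 3 below at 72 h, so that 3 left out 0 at each time (60.7% and 52.3% of all genes). *Atoh1*, with 1236 and 1508 normalised counts on day 2 and 394 and 286 on day 3, had log2 changes of 0.29 (0.18 to 0.39) and −0.46 (−0.69 to −0.23), and *Neurog3*, the switch gene of endocrine progenitors, of 0.10 (−0.09 to 0.29) and 0.28 (−0.02 to 0.58). The cell cycle inhibitor *Cdkn1b* had log2 changes of −0.63 (−0.73 to −0.54) and −0.19 (−0.30 to −0.09), and *Cdkn1c* of 1.29 (0.99 to 1.61) and −0.43 (−0.72 to −0.15).

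Genes whose pattern over the 4 libraries was closest to a member were searched among the 10789 genes whose normalised count averaged 100 or more, by the Euclidean distance of centred log2 levels. Closest to *Notch3* were *Fcho1* (distance 0.13), *Igfbp4* (0.15) and *Arhgap8* (0.16), with log2 fold changes at 48 h and 72 h of 2.40 and 1.45, 2.28 and 1.55, and 2.08 and 1.57. Closest to *Dll1* were *Pdik1l* (0.34), *Tent5c* (0.39) and *2610008E11Rik* (0.45), with log2 fold changes of −0.91 and −0.23, −0.86 and −0.26, and −0.76 and 0.07, all farther from it than those were from *Notch3*. Closest to *Hes1* were *Zfp595* (0.03), *Zfp251* (0.04) and *Cish* (0.05). With 4 libraries these distances describe the libraries only.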

How the data were processed

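Colonoid RNA had been enriched for poly-A and sequenced with TruSeq chemistry. The authors deposited estimated counts per gene, rounded to whole numbers and neither normalised nor filtered, which came from a kallisto-based pipeline and tximport (kallisto 0.44.0 and GRCm38.p6 per the labels). Genes exceeding 10 counts in 2 or more libraries were retained, and size factors came from DESeq2 1.42.0. Alternative factors came from edgeR 4.0.16, both in R 4.3.3. Other steps used Python 3.11.15 with scipy 1.17.1. Intervals were exact Clopper-Pearson intervals on the pair of counts for fold changes and normal approximations on the logit scale for shares and on the log scale for ratios and differences of changes. The fold changes and their intervals were tested on simulated data. Exon lengths and positions came from GENCODE M21 (GRCm38), matched by symbol. With 1 library per condition no model was fitted. A change of at least 2-fold counted as a call.

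The members and lists were chosen with earlier results of these data known. Beside the 10 members, the text names pathway genes past 2-fold, the 2 highest genes of each role and marker list, the 4 genes repressed by Hes1 and the 3 genes closest to *Notch3*, *Dll1* and *Hes1*. Alternatives were other scalings, pseudocounts of 0.5 and 5, other gene filters and other gene lengths.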

Additional observations from a re-analysis of the deposited data

Results flagged for a closer look

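*Notch1* moved in opposite directions with butyrate at 48 h and 72 h, with a counting interval on either side of 0, and its log2 fold change at 72 h exceeded that at 48 h by 0.93. It was 1 of 10 members to do so, and 1379 of 13979 genes (9.86%) did so in the whole table. Of the 44 other pathway genes 4 did so, with differences, 72 h minus 48 h, of 0.65 (0.52 to 0.77) for *Mib1*, −0.41 (−0.61 to −0.21) for *Psenen*, a γ-secretase subunit, −0.75 (−1.0 to −0.50) for *Atoh1* and −1.72 (−2.14 to −1.32) for *Cdkn1c*. With 1 library per condition the difference between the times was not tested against replicate error in any of these genes, and the time of exposure and the single culture cannot be told apart.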

How the results depend on the processing

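The labels give no replicate numbers to pair. A fit of treatment with time as a block would leave 1 residual degree of freedom, with the difference between the times as its error, and was not run. Under 8 scalings, pseudocounts and filters, 160 of 160 recomputed fold changes of members stayed within their counting intervals, as did 686 of 692 of the other pathway genes, and the other 6 kept their sign. The number of members at least 2-fold higher at 48 h rose from 1 to 2 with upper quartile scaling and with size factors from genes of mean normalised count of at least 50, in both through *Jag2*. At 1.5-fold, a threshold added after seeing the data, members higher and lower were 2 and 3 at 48 h, and 2 were higher at 72 h. Among other pathway genes the mean filter of 50 left 3 higher and 0 lower at 48 h, having fewer genes tested, and no filter gave 2 lower at each time. At 1.5-fold 7 were higher and 7 lower at 48 h (13.1% and 8.90% of all genes), and 7 higher and 0 lower at 72 h (9.50% and 8.53%). The share of *Notch3* in the receptor sum, in the order untreated and butyrate at 48 h, then at 72 h, was 1.78%, 11.1%, 2.21% and 4.98% with longest transcript lengths and 1.49%, 9.44%, 1.85% and 4.18% without length. The share of *Dll1* without length was 18.1%, 8.28%, 11.0% and 9.14%. The shares took another length by construction, and within each time their order between treatments held. The number of other genes at least 2-fold higher at 72 h, 4 as reported, was 3 with a pseudocount of 5, where *Notch4* was at 0.905, and with the mean filter of 50, and 5 with total count scaling and with no filter. Among the members *Notch3* had the lowest counts, 45 and 49 untreated.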
